A study of Canis lupus familiaris with 8 samples.

Results

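The ERBB receptor genes and a pair of inhibitors that bind the receptors directly were followed in a dog kidney epithelial cell line under static stretch. The set was fixed by name and comprised EGFR, ERBB2, ERBB3 and ERBB4, together with ERRFI1 and LRIG1. All 6 were among the 37952 genes of the deposited table, and all 6 were among the 14571 genes with enough counts to be tested. RNA came from monolayers of MDCK GII cells on a collagen-coated elastic silicone membrane, grown overnight in serum-containing medium. In the stretch group (4 wells) vacuum pulled the membrane in both in-plane directions to 18% strain for 2 hours, and in the control group (4 wells) no strain was applied. No well carried a genetic change or an added drug, per the labels. The labels call the wells technical quadruplicates spread over several devices, so every p-value measures the spread between wells of 1 cell line. The series title places the experiment in work on E-cadherin force, ligand shedding and EGFR-ERK signalling. The comparison here asks whether the transcripts of the receptors and their inhibitors change within that time.

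ERBB receptors are membrane tyrosine kinases that pair with each other when an extracellular ligand of the EGF or neuregulin family binds. The paired kinases phosphorylate each other's tails, which then recruit adaptors that switch on the Ras-ERK and PI3-kinase pathways. EGFR and ERBB4 bind ligand and are active kinases, ERBB2 has no known soluble ligand and serves as a preferred partner, and ERBB3 binds neuregulins but has little kinase activity of its own. ERRFI1 (also called MIG6) binds the intracellular kinase domain, blocks it and promotes receptor removal from the surface, and its gene is a known transcriptional output of growth factor signalling. LRIG1 is a transmembrane protein that binds ERBB receptors and promotes their ubiquitination and degradation.

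With the replicate number fitted as a block in edgeR, 1 of the 6 genes was called higher after stretch and 1 lower. Of all tested genes, 0.528% were called higher and 0.172% lower in that fit. The other 4 genes showed no difference past the threshold. ERRFI1 had 1.51 times the control level and was higher in the stretch well of all 4 same-numbered pairs. ERBB3, the most abundant receptor transcript, changed by -12.1% and was lower in all 4 pairs. In edgeR's test across all genes on all 8 wells, both passed when the replicate number was fitted as a block and neither passed without it. DESeq2 called ERRFI1 without the block as well. EGFR, ERBB2, ERBB4 and LRIG1 had log2 changes between 0.022 and 0.055, with no call in either fit. None of the 6 genes had groups that did not overlap, where 2.55% of all tested genes did (1.30% higher and 1.24% lower).

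Wells held between 27047358 and 32478887 counts. All 10 epithelial markers examined were expressed, with a summed level of 5328 to 5930 CPM (counts relative to the size of the library, which was adjusted by TMM factors) in control wells and 5628 to 5729 CPM in stretch wells. The 5 renal tubule markers summed to 311 to 397 CPM in control wells and 329 to 399.5 CPM in stretch wells. Of them PAX8 had at least 65.9 and PAX2 at least 24.3 CPM in each well, while LHX1 lay at 3.20 to 5.65 CPM and CDH16 at 0.677 to 2.02 CPM. Summed levels in control and stretch wells were 1.80 to 4.22 and 2.92 to 3.88 CPM for 7 fibroblast markers, and 1.54 to 2.30 and 1.33 to 2.37 CPM for 5 endothelial markers. They were 6.41 to 7.34 and 5.49 to 7.00 CPM for 5 leukocyte markers, mostly CD14, and 10.4 to 17.5 and 13.7 to 16.8 CPM for 3 podocyte markers, all from SYNPO. Among these lists COL1A2, COL3A1, DCN, LUM, PTPRC, CD3E and NPHS1 had 0 counts in every well. With the replicate block, 102 of the 14571 tested genes (0.700%) had an adjusted p under 0.05, 77 higher (0.528%) and 25 lower (0.172%). Without it the edgeR count was 0 (0%), with 579 genes at an unadjusted p under 0.05 (3.97%), and DESeq2 without the block called 40. In bulk RNA, fewer cells with a transcript and less of it per cell cannot be told apart.

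The resting monolayer expressed all 4 receptors, at levels that differed by more than an order of magnitude. Levels between genes were compared per length, as RPKM, the CPM divided by exon length in kilobases. ERBB3 stood highest, at 85.6 ± 7.57 RPKM (mean ± SD, n = 4 control wells), at percentile 92.7 of the tested genes. ERBB2 followed at 35.7 ± 2.15 RPKM, at percentile 82.2. EGFR, the receptor of the study's title, stood at 3.87 ± 0.319 RPKM and ERBB4 at 2.64 ± 0.0545 RPKM, at percentiles 33.4 and 27.7. Of the inhibitors, ERRFI1 had 14.4 ± 1.90 RPKM and LRIG1 5.37 ± 0.387 RPKM, both above EGFR. The order ERBB3, ERBB2, ERRFI1, LRIG1, EGFR and ERBB4 held in every well of both groups, and no neighbours in it overlapped within a group. The nearest neighbours in control wells were LRIG1, from 4.79 to 5.60 RPKM, and EGFR, from 3.48 to 4.20 RPKM. Lengths were those of the deposited table, from 3124 bases for ERRFI1 to 12038 for ERBB4, and they count every annotated exon. A gene with long exons that these cells do not use would therefore read too low per length.

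**Figure D1:**
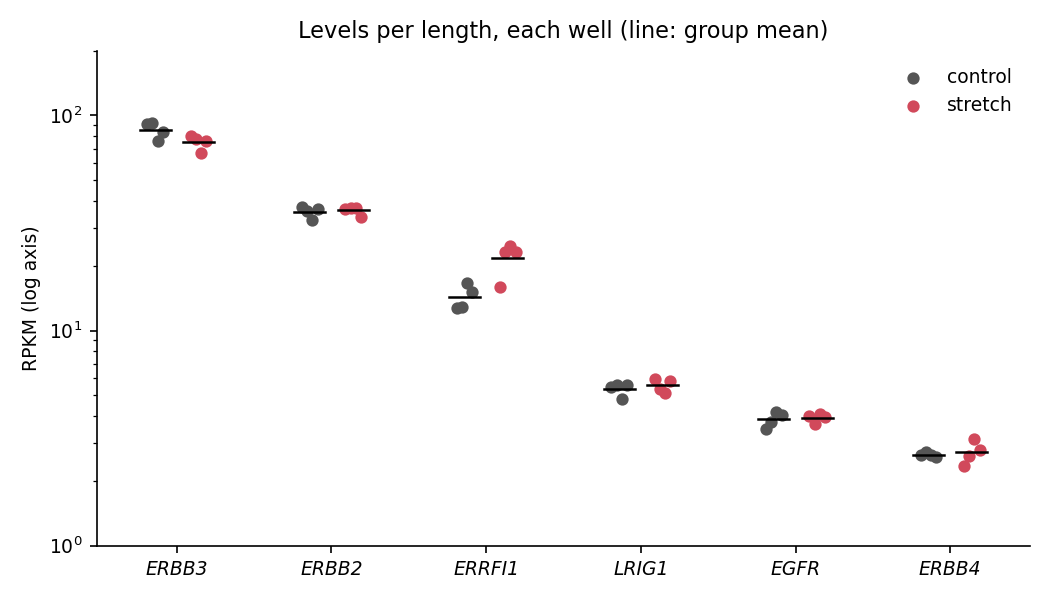
RPKM of each gene in each well on a log axis, control wells in grey and stretch wells in red, with a line at the group mean. ERBB3 and ERBB2 lie highest and ERBB4 lowest in both groups, and the order is the same in all 8 wells.

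ERRFI1, the intracellular kinase inhibitor, showed the largest difference of the 6. The gene lies on chromosome 5 (62105524 to 62119850, minus strand), and no other gene of the table overlaps it. Control wells 1 to 4 had 39.8, 40.4, 52.2 and 47.3 CPM, and stretch wells 1 to 4 had 49.7, 72.6, 77.0 and 72.6 CPM. Stretch replicates 2, 3 and 4 lay above every control well, while stretch replicate 1 lay inside the control range, so the groups overlapped. Within same-numbered pairs the log2 differences were 0.32, 0.85, 0.56 and 0.62. All 4 were positive, as in 8.45% of all tested genes. The group means were 44.9 ± 5.93 and 68.0 ± 12.4 CPM (SD, n = 4). With the block, edgeR fitted a log2 change of 0.59 ± 0.069 (SE, 95% interval 0.44 to 0.74). Without it the estimate was 0.60 ± 0.14 (0.28 to 0.91). Adjusted p-values in edgeR's quasi-likelihood test were 0.00146 with the block and 0.567 without, where the unadjusted p was 0.0019. By p in the fit with the block, ERRFI1 ranked 12 of 14571 genes.

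The ERRFI1 call with the block held when each pair of wells was left out in turn (edgeR, adjusted p from 3.4e-04 to 0.0423). Without the block it passed when stretch replicate 1, the lowest stretch well, was left out (log2 change 0.73, edgeR, adjusted p = 0.0258). DESeq2 called it on all 8 wells (adjusted p = 0.00674). Leaving out any other single well without the block gave no call. Neither did limma-voom (adjusted p = 0.664) or replicates 1 and 2 only (edgeR, adjusted p = 0.703).

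ERBB3, the neuregulin receptor with weak kinase activity, was lower after stretch. It lies on chromosome 10 (758352 to 776205, plus strand), overlapped by no other gene of the table. Control wells 1 to 4 had 481, 485, 399.6 and 441 CPM, and stretch wells 1 to 4 had 424, 409, 354 and 401 CPM. Replicate 3 was the lowest well of both groups, and control replicate 3 fell inside the stretch range, so the groups overlapped. Within pairs the log2 differences were -0.18, -0.25, -0.18 and -0.13. All 4 were negative, as in 7.84% of all tested genes. Mean levels were 451 ± 39.9 and 397 ± 30.3 CPM (SD, n = 4), and the counts behind them, from 10309 to 14979 per well, were the deepest of the 6 genes. With the block, the fitted log2 change was -0.18 ± 0.034 (SE, 95% interval -0.26 to -0.11). Without it the estimate was -0.19 ± 0.069 (-0.34 to -0.035). The adjusted p was 0.0126 with the block and 0.999 without (edgeR), where the unadjusted p was 0.0198. ERBB3 ranked 53 of 14571 by p with the block.

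The ERBB3 call was lost without the pair of replicate 1 or 2, whereas that of ERRFI1 held without any single pair. With the block and without the pair of replicate 1, the log2 change was -0.19 and the adjusted p 0.139 in edgeR. Without the pair of replicate 2 these were -0.16 and 0.135. Without the pair of replicate 3 or 4 the gene passed (edgeR, adjusted p = 0.00174 and 0.0423).

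**Figure D2:**
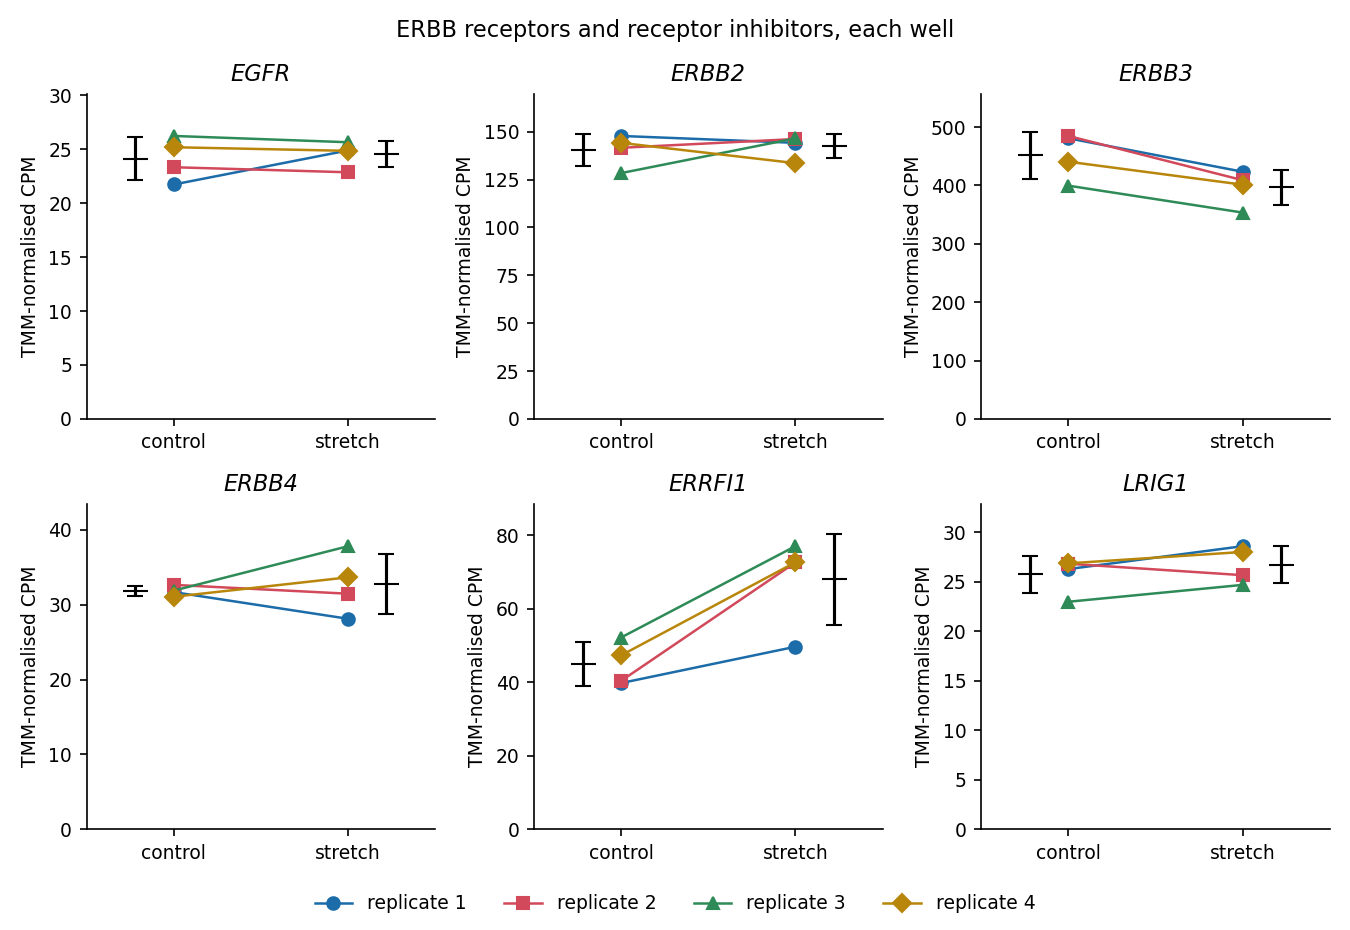
TMM-normalised CPM of each gene in control and stretch wells, with lines joining wells of the same replicate number and black bars for mean ± SD (n = 4). ERRFI1 goes up and ERBB3 goes down along all 4 lines, while the lines of the other genes cross or run level.

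A coarser block, which sets replicates 1 and 2 against replicates 3 and 4, left both genes just above the threshold. ERRFI1 then had an adjusted p of 0.0693 and ERBB3 of 0.0694 in edgeR, with log2 changes of 0.60 and -0.18. The size of the fitted change was thus nearly equal in all 3 fits.

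EGFR, the receptor that gives the pathway its name, showed no difference past the threshold. It spans 5960845 to 6158207 on the plus strand of chromosome 18. The control wells had 21.7, 23.3, 26.2 and 25.2 CPM and the stretch wells 24.9, 22.9, 25.7 and 24.9 CPM, so the stretch range lay inside the control range. Only the pair of replicate 1 was higher after stretch, by 0.20 on the log2 scale, and the other 3 pairs differed by -0.032 to -0.019. The fit with the block gave 0.027 ± 0.064 (SE) on the log2 scale (edgeR, adjusted p = 0.964), and its 95% interval, -0.11 to 0.16, leaves room for changes of that size in either direction. Without control replicate 1 and without the block the sign turned, to -0.018.

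ERBB2, the receptor that serves as a partner without a ligand of its own, likewise showed no difference past the threshold. It lies on chromosome 9 (22713484 to 22737693, minus strand). Control wells had 148, 142, 128 and 144 CPM and stretch wells 144, 146, 147 and 134 CPM. The groups overlapped almost entirely, and 2 of the 4 pairs were higher. Of the 6 genes, ERBB2 had the narrowest interval without the block, -0.096 to 0.14 around a log2 change of 0.022 (edgeR, adjusted p = 0.999). The sign turned, to -0.019, without control replicate 3.

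ERBB4, the other neuregulin receptor, varied more between the stretch wells than between the control wells. It occupies 18890858 to 19999263 on the minus strand of chromosome 37. Control wells had 31.7, 32.7, 31.9 and 31.1 CPM, a coefficient of variation of 2.06%, below the 3.24% that counting error alone gives at this depth. Stretch wells had 28.1, 31.5, 37.8 and 33.7 CPM, a coefficient of variation of 12.4%. Stretch replicate 1 lay below and stretch replicates 3 and 4 above all control wells, and the pair differences were -0.17, -0.053, 0.25 and 0.12 on the log2 scale. With the block the estimate was 0.037 ± 0.067 (SE, 95% interval -0.10 to 0.18; edgeR, adjusted p = 0.946), which is no difference past the threshold. No test of the difference in spread was made. Leaving out stretch replicate 3 turned the sign of the unblocked change, to -0.032.

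LRIG1, the transmembrane inhibitor, showed no difference past the threshold. It lies on chromosome 20 (25052534 to 25163376, plus strand). Control wells had 26.3, 26.8, 23.0 and 26.9 CPM and stretch wells 28.6, 25.7, 24.7 and 28.0 CPM. The groups overlapped, and 3 of 4 pairs were higher. The blocked fit gave 0.055 ± 0.061 (SE, log2 scale, 95% interval -0.073 to 0.18; edgeR, adjusted p = 0.899). The upper bound for LRIG1 lies below the lower bound of 0.44 for ERRFI1 in the same fit. LRIG1 shares 137 exon bases with SLC25A26 on the opposite strand. SLC25A26 had only 156 to 179 counts per well against 679 to 903 for LRIG1. The strand setting of the counter is not given in the sources used here, so reads of the shared bases cannot be assigned. EGFR and ERBB4 also span genes on the opposite strand (4 and 1), but these had 0 counts in every well and share no exon bases with them.

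**Figure D3:**
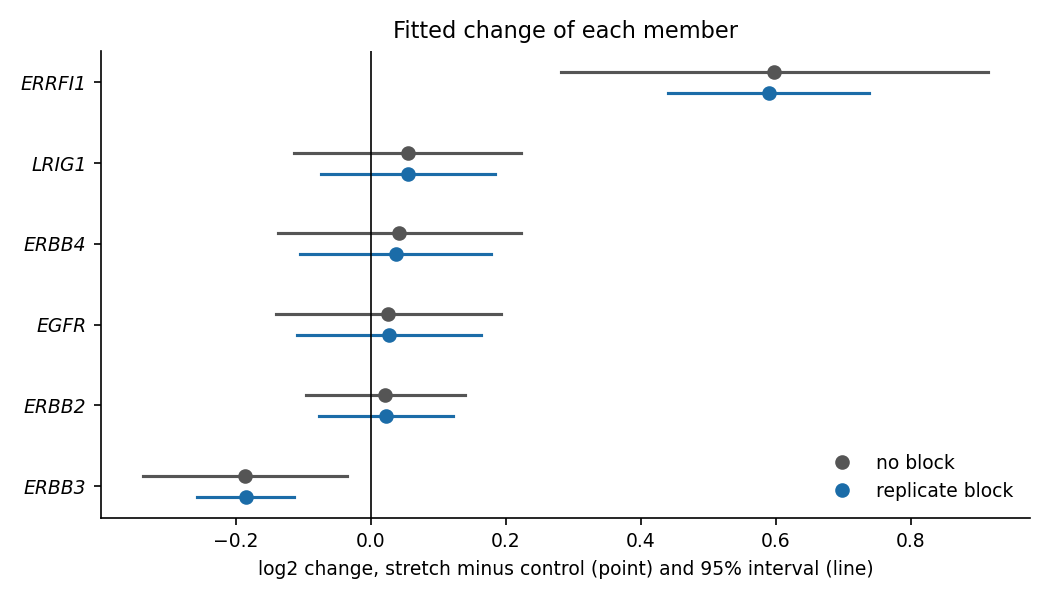
Fitted log2 change of each gene, stretch minus control, with its 95% interval, in grey without a block and in blue with the replicate block. The blue intervals of ERRFI1 (0.44 to 0.74) and ERBB3 (-0.26 to -0.11) exclude 0 and are narrower than the grey ones, while both intervals of the other 4 genes include 0.

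Ratios of genes within a well do not depend on how the libraries are scaled. ERBB3 over ERBB2, as a ratio of RPKM, was 2.43, 2.56, 2.33 and 2.28 in control wells and 2.19, 2.09, 1.80 and 2.24 in stretch wells. The stretch wells were all lower and the groups did not overlap, though control replicate 4 (2.28) and stretch replicate 4 (2.24) were close. ERRFI1 over EGFR was 3.65, 3.46, 3.97 and 3.75 in control wells and 3.98, 6.34, 6.00 and 5.84 in stretch wells. These groups did not overlap either, but stretch replicate 1 exceeded the highest control well by little. Of 8 such ratios computed these were the 2 without overlap, and each holds a gene called with the block. How often ratios of other genes separate the groups was not computed. ERRFI1 over LRIG1 was 2.32, 2.31, 3.48 and 2.703 in control wells and 2.66, 4.34, 4.79 and 3.98 in stretch wells, higher in all 4 pairs, with stretch replicate 1 inside the control range. ERBB3 over EGFR ranged from 18.0 to 26.2 in control and from 16.3 to 21.2 in stretch wells, lower in all 4 pairs. ERRFI1 over ERBB3 was higher in all 4 pairs, at 0.170 ± 0.0385 in control wells and 0.293 ± 0.0703 in stretch wells (SD, n = 4), with overlapping groups. The ratio of ERBB2 to EGFR, neither of which was called, was 9.30 ± 1.25 and 9.22 ± 0.672.

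The receptor transcripts summed to 128 ± 9.15 RPKM in control wells and 118 ± 5.16 RPKM in stretch wells, lower in all 4 pairs, with overlapping groups. ERBB3 made up 66.9 ± 1.31% of that sum in control wells and 63.7 ± 2.39% in stretch wells (SD, n = 4). ERBB2 made up 27.9 ± 0.892% and 30.7 ± 1.90%. The shares of ERBB3 and of ERBB2 did not overlap between the groups. EGFR held 3.05 ± 0.471% and 3.34 ± 0.278%, and ERBB4 2.08 ± 0.153% and 2.32 ± 0.391%, both with overlap. Shares are tied to each other, so a lower share of ERBB3 raises the rest without a change in their levels.

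**Figure D4:**
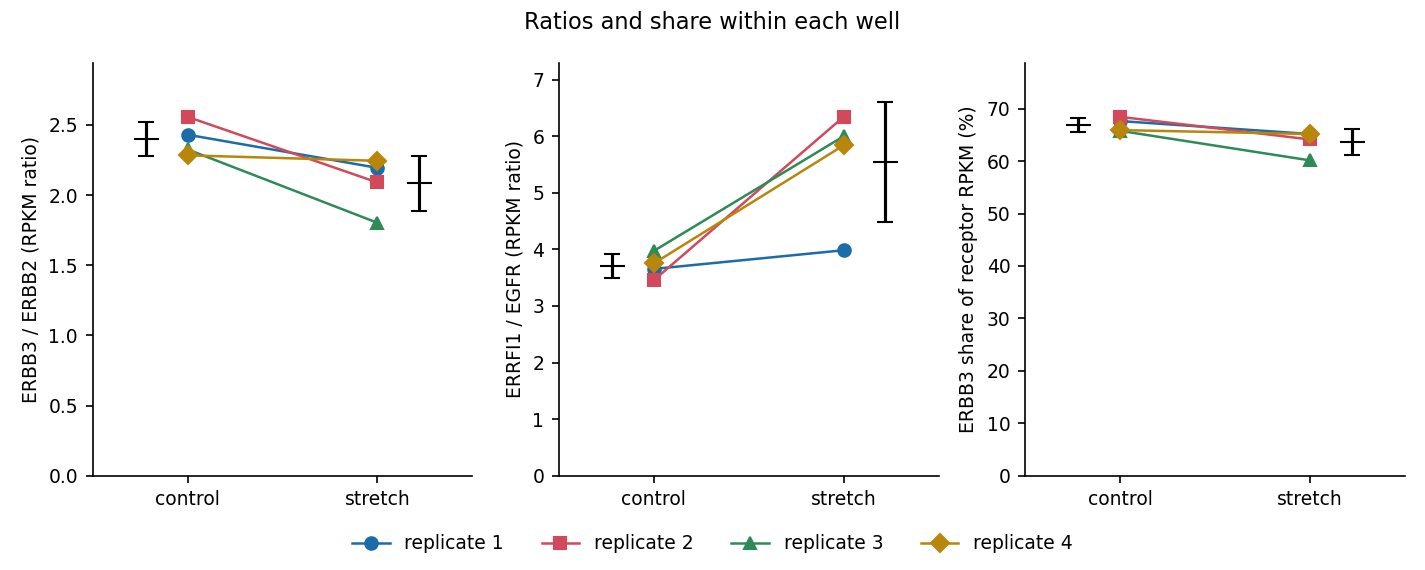
ERBB3 over ERBB2, ERRFI1 over EGFR (both as ratios of RPKM) and the ERBB3 share of the summed receptor RPKM in percent, with lines joining wells of the same replicate number and black bars for mean ± SD (n = 4). Every line goes down, up and down respectively, and replicate 1 changes least for ERRFI1 over EGFR (3.65 to 3.98).

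The level of several members followed the replicate number as well as the group. Replicate 3 had the lowest ERBB3 and LRIG1 and the highest EGFR and ERRFI1 in both groups. Replicate 1 had the lowest ERRFI1 in both groups, at 39.8 and 49.7 CPM. ERBB3 in control wells varied with a coefficient of variation of 8.84%, where counting error gives 0.860%, and ERRFI1 with 13.2% where counting gives 2.72%. Fitting the replicate number lowered the biological coefficient of variation of ERRFI1 from 13.9% to 6.89% and that of ERBB3 from 7.79% to 4.26%. For ERBB2 it went only from 6.52% to 5.29%. What the equal numbers share is not stated in the labels.

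No genome neighbour of the 6 genes was called. The nearest tested genes beside ERRFI1 were PARK7, with a log2 change of -2.1e-04 (105 CPM in both groups), and LOC102155776, at 0.62 ± 0.39 (SE) from below 1 CPM. Beside ERBB3, the ribosomal protein gene RPS26 differed by 0.0028 and PA2G4, whose product is known to bind ERBB3, by -0.014. PA2G4 starts 1316 bases beyond the end of ERBB3 and shares exon bases with an opposite-strand gene. MIEN1 and PGAP3 beside ERBB2 had log2 changes of 0.0033 and 0.25, and SEC61G and LANCL2 beside EGFR of -0.0073 and 0.021. LOC100856555 and IKZF2 beside ERBB4 had -0.033 and 0.054, and KBTBD8 and SLC25A26 beside LRIG1 0.18 and -0.011. The smallest adjusted p among these 12 neighbours with the block was 0.436, for PGAP3 (edgeR).

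Genes with the most similar pattern were ranked by Pearson's r of log2 CPM over the 8 wells, among genes of at least 10 CPM. These wells share groups and replicate numbers, so r is a description. The closest to ERRFI1 were TRIB1 (r = 0.989), a pseudokinase gene, and ABHD17C (r = 0.975), which encodes a depalmitoylating enzyme. Both passed with the block, but they were picked for likeness to ERRFI1 in these same wells, so their calls are no separate support. TRIB1 had 59.3 ± 4.74 CPM in control and 72.2 ± 8.60 CPM in stretch wells (log2 change 0.28; edgeR with the block, adjusted p = 0.0194). That call was lost without the pair of replicate 2 (adjusted p = 0.131, edgeR) or replicate 4 (0.139). ABHD17C had 122 ± 5.01 and 149 ± 12.9 CPM, with no overlap between groups (log2 change 0.29; edgeR with the block, adjusted p = 0.00247). It passed with the coarser block too (edgeR, adjusted p = 0.00306), as did TRIB1 (0.0314).

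The closest genes to ERBB3 were the histone genes H2BC20 and H2BC19 (r = 0.989 for each), both with log2 changes of -0.19 and not called in either fit. They belong to a family of near-identical copies, so their reads may be shared. For EGFR the closest were the ribosome biogenesis gene GNL2 (r = 0.978) and GPATCH4 (0.964). For ERBB2 they were LRPAP1 (0.954) and ANGEL1 (0.950), for ERBB4 LOC119876849 (0.954) and PRRG1 (0.951), and for LRIG1 the mitochondrial translation genes MRPL30 (0.943) and MTIF3 (0.934). None of these passed in either fit.

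The other genes of the pathway were counted in 8 lists drawn up from general knowledge. Of the 5 tested ligands of 11, 1 rose with the block (0.528% of all genes did). All 5 had log2 changes above 0, as had 48.2% of all genes, with a median log2 change of 0.12 against -0.0032 over all tested genes. EGF and TGFA were among them at 0.033 and 0.10, neither called. HBEGF, a ligand of EGFR and ERBB4, went from 20.9 ± 3.36 to 36.4 ± 5.93 CPM (log2 change 0.80; edgeR with the block, adjusted p = 1.8e-05, and 0.188 without). Its groups did not overlap, and with the coarser block the adjusted p was 0.0668 (edgeR). EREG had 24.5 ± 12.9 and 39.2 ± 10.9 CPM and did not pass in edgeR on all 8 wells (adjusted p = 0.249 with the block). With the block it passed under DESeq2 (adjusted p = 0.00712) and in edgeR without the pair of replicate 3 (1.1e-08). It also passed in edgeR with no filter on low counts (1.5e-29), a run that called 448 genes against 102 with the filter. Of the 7 fits with the block on all 8 wells, EREG passed in 2. NRG1, a ligand of the called receptor ERBB3, had 97.2 ± 9.01 and 105 ± 6.79 CPM, higher in 4 of 4 pairs and not called (edgeR with the block, adjusted p = 0.362). AREG, NRG3 and NRG4 were listed at 0 counts in every well. Whether these zeros reflect absent transcripts or the annotation used for counting was not tested.

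ERK feedback inhibitors, which like ERRFI1 are induced by the pathway they restrain, had 9 tested genes of 11. With the block 3 of them rose (0.528% of all genes did), all of the DUSP phosphatase family. The median log2 change of the list was 0.40 without the block. DUSP6 rose by 0.52, DUSP7 by 0.47 and DUSP5 by 0.41 (edgeR with the block, adjusted p = 0.0061, 0.0337 and 0.0297). None of these 3 passed with the coarser block or without the pair of replicate 1 (edgeR, adjusted p = 0.058, 0.095 and 0.154 in the last case). DUSP7 and DUSP5 were also lost without replicate 4 (0.186 and 0.0865). SPRY2 and SPRY1 had log2 changes of 0.48 and 0.40 with the block and did not pass (edgeR, adjusted p = 0.125 and 0.057). SPRY4 had 0.77 with the block and did not pass either (edgeR, adjusted p = 0.112). The list was not uniform, as SPRED1, SPRED2 and SPRED3 had -0.0091, 0.011 and 0.12 with the block and were not called.

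Negative regulators acting at receptors, a list of 9 that holds the LRIG1 relatives LRIG2 and LRIG3, had 0 calls with the block and 1 gene at an unadjusted p under 0.05 without it (edgeR). That gene was SOCS3, an inhibitor of cytokine receptors, which went from 1.00 ± 0.237 to 1.60 ± 0.350 CPM. In this short list 1 gene is 11.1%, against 3.97% of all genes at that unadjusted p. With the block 0.700% of all genes were called. LRIG2 and LRIG3 had log2 changes of 0.037 and 0.096, beside 0.055 for LRIG1. PTPN1, a phosphatase that acts on EGFR, differed by 0.15 and SOCS5 by -0.11.

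In 3 lists of genes downstream of and around the receptors no gene was called, where 0.700% of all genes were. Of 25 tested adaptors, kinases and Ras-ERK core genes, 0 were called with the block and 1 had an unadjusted p under 0.05 without it (edgeR), which is 4% of the list against 3.97% of all genes. It was GRB7, an adaptor that binds ERBB2 and ERBB3, with 22.9 ± 2.17 and 18.9 ± 2.61 CPM and a log2 change of -0.28. PIK3R2 and SHC2 had 0.12 and 0.57, the latter from below 1 CPM. Receptor endocytosis and ubiquitination genes (20 tested) had log2 changes from -0.045 to 0.12, with 0 calls with the block and 0 at an unadjusted p under 0.05 without it (edgeR). They include RNF41, the ubiquitin ligase known for degrading ERBB3, at 0.12, and EPS15 and CLTC at 0.072 and -0.029. Chaperones and binding partners (10 tested) had 0 calls with the block and 1 at an unadjusted p under 0.05, the mucin gene MUC1, at 0.15 (edgeR). STUB1 and CDC37, in the same list, had 0.031 and 0.018.

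Other receptor tyrosine kinases served as a comparison for the receptor family. Of 28, 21 were tested, with a median log2 change of 0.0026. With the block 0 were called, where 0.700% of all genes were. Without it 0 had an unadjusted p under 0.05 (edgeR), where 3.97% of all genes had. In a list of this size such shares give few genes or none. EPHA2 had the smallest p, at 175 ± 48.9 and 248 ± 49.1 CPM (log2 change 0.51 without the block, edgeR, adjusted p = 0.0953 with it). It passed in 3 of 29 alternatives, 2 of them among the 7 fits with the block on all 8 wells. KDR and FGFR2 had -0.37 and 0.089.

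ERBB3 is one of the genes known to be activated by FOXO factors, so a list of 16 other such genes was examined. Of 14 tested, 12 were lower (85.7%, against 51.8% of all tested genes), with a median log2 change of -0.16. With the block 1 of the 14 fell, where 0.172% of all genes did. This was CDKN1B, the gene of a cyclin-dependent kinase inhibitor, which went from 37.3 ± 2.44 to 30.1 ± 1.80 CPM (log2 change -0.31; edgeR with the block, adjusted p = 0.00807). Its groups did not overlap. The call held with the coarser block (edgeR, adjusted p = 0.0191) and was lost without the pair of replicate 1 (0.095) or 2 (0.0563). CDKN1B shares 239 exon bases with a gene on the opposite strand, so its count is uncertain. PDK4 had -0.44 and GADD45A 0.20, neither called. Of the 14, 3 were lower in all 4 pairs (7.84% of all tested genes were), and 1 was higher in all 4 (8.45%). FOXO activity was not measured, and whether it has a part in the lower ERBB3 was not tested.

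**Figure D5:**
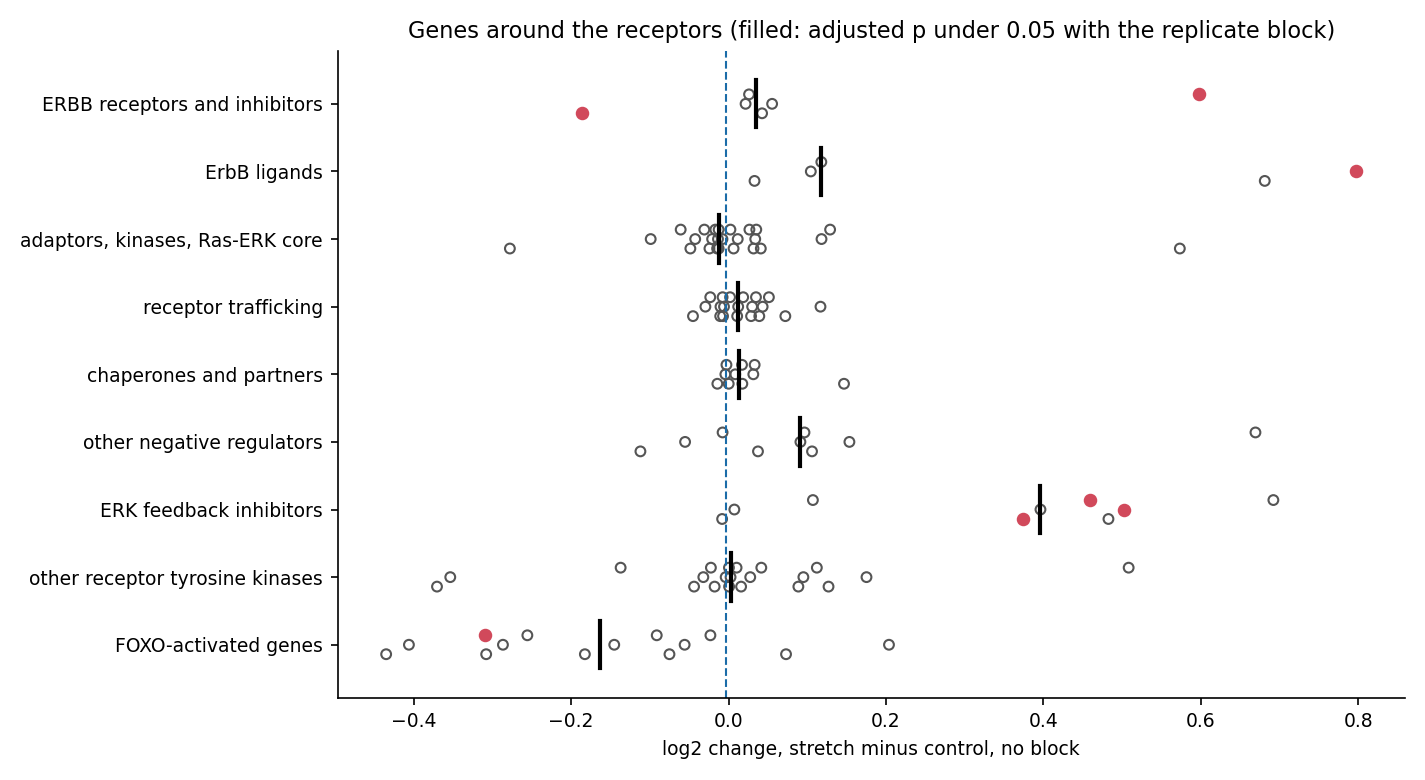
Log2 change of each tested gene, stretch minus control without the block, for the 6 members and the 8 lists. Filled points passed with the replicate block (edgeR, adjusted p under 0.05), black bars are list medians and the dashed line is the median of all tested genes; the medians of the ERK feedback inhibitors (0.40) and FOXO-activated genes (-0.16) lie farthest from it.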

How the data were processed

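The authors deposited raw exon read counts per gene for 8 wells. FastQC 0.11.8, Trim Galore 0.6.5, STAR 2.7.3a, Subread and featureCounts are named in the submitters' processing notes; the strand setting, multi-read handling and genome build are not given in the sources used here. Libraries were strand-specific and polyA-selected, per the labels. The exon length of each gene, in bases, is also as deposited by the authors. Coordinates are the table's own; 37291 symbols matched the RefSeq table of the dog assembly UU_Cfam_GSD_1.0, all at identical positions, which gave chromosome names.

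Counts were tested with edgeR 4.0.16 in R 4.3.3 (glmQLFit robust, glmQLFTest, TMM, filterByExpr with a minimum count of 10 and total of 15), two-sided, with Benjamini-Hochberg adjustment over all 14571 tested genes at 0.05. The model had a stretch term, with the replicate number as a block in the other planned fit. Same-numbered wells deviated together from their group means (r = 0.328, 0.108, 0.182 and 0.178 for replicates 1 to 4 across genes). As every r was over 0.1 they were taken as pairs, and blocked values stand beside unblocked ones. Log2 CPM used a prior count of 2. Alternatives were DESeq2 1.42.0, limma-voom (limma 3.58.1), other scalings and filters, a block of 2 levels and leaving out wells. The scripts were tested on simulated data.

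The members, the 8 lists (132 genes, 113 tested) and the alternatives were chosen with earlier results of these data known. Named genes were the members and the 3 of each list with the smallest p without the block. The nearest tested gene on each side of a member and the 2 genes most similar to it were also named. DUSP5, DUSP6, SPRY4, SPRED1, SPRED2, SPRED3, LRIG2, LRIG3, EGF, TGFA and genes listed at 0 were added after their values were seen. No sequences were used here, so the planned promoter motifs were not searched.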

Additional observations from a re-analysis of the deposited data

Results flagged for a closer look

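Of 12 groups of 4 wells (6 genes in each group), 2 held 1 well that stood apart under Dixon's test at the 95% level, a result that chance gives in about 1 in 20 groups. For ERRFI1, stretch replicate 1 had 49.7 CPM and the other stretch wells 72.6 to 77.0 CPM. For LRIG1, control replicate 3 had 22.99 CPM and the other control wells 26.3 to 26.9 CPM. Without stretch replicate 1 the ERRFI1 log2 change was 0.73 (edgeR without the block, adjusted p = 0.0258), and without control replicate 3 the LRIG1 change was 0.01 (adjusted p = 0.998).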

How the results depend on the processing

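Each of the 6 changes was recomputed under 29 alternatives. ERRFI1 and ERBB3 kept their sign in 29 of 29 and passed in 14 and 9 of them, LRIG1 kept its sign in 29 and passed in 0, and EGFR, ERBB2 and ERBB4 kept theirs in 26, 27 and 26 and passed in 0. With the replicate block, log2 changes were 0.59 to 0.60 for ERRFI1 and -0.18 for ERBB3, past the threshold under edgeR, DESeq2, limma-voom, DESeq2 size factors, library size only, no filter, and at least 10 counts in every well. Without the block ERRFI1 passed only under DESeq2 (0.60), in replicates 3 and 4 only (0.60) and without stretch replicate 1 (0.73). No other member's call was changed by the block. Leaving out single wells without the block gave 0.53 to 0.73 for ERRFI1, -0.24 to -0.13 for ERBB3 (unadjusted p up to 0.069), -0.018 to 0.069 for EGFR, -0.019 to 0.055 for ERBB2 and -0.032 to 0.11 for ERBB4. With the block and without the pair of replicate 1, 2, 3 or 4, ERRFI1 had 0.67, 0.51, 0.60 and 0.58, past the threshold each time, and ERBB3 -0.19, -0.16, -0.19 and -0.20, past it in the last 2. Signs turned in the same runs for EGFR without replicate 1 (-0.027), and without replicate 3 for ERBB2 (-0.034) and ERBB4 (-0.034). EGFR was also reversed in replicates 3 and 4 only (-0.020) and ERBB4 in replicates 1 and 2 only (-0.11). The cause of these shifts was not tested.

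The number of genes called, 0 in the edgeR fit without the block (579 at an unadjusted p under 0.05), was 40 with DESeq2, 11 with no filter, 58 with the 2-level block, 51 in replicates 1 and 2 only, 25 in replicates 3 and 4 only, and 0 to 12 without single wells. With the replicate block it was 102, and then 145 with DESeq2, 100 with limma-voom, 105 with DESeq2 size factors, 111 with library size only, 448 with no filter, 97 with at least 10 counts in every well and 43 to 186 without single pairs (43 without replicate 1, 67 without 2, 74 without 4 and 186 without 3). Other named genes with an unadjusted p under 0.05 in either fit were added to these runs after seeing the data, and none changed sign. No scaling moved the median of all genes by over 0.1. Counting error alone is 3.72% for EGFR at its control depth. The biological coefficient of variation without the block was larger, at 7.75% for EGFR, 8.54% for ERBB4 and 7.87% for LRIG1. With that spread between wells, small changes of these genes are not detectable here.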
